A study of Mus musculus with 21 samples.

Results

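Interferon-stimulated genes are the genes that cells switch on when they sense interferon. Here 43 of them, chosen by gene name, are described in dissected taste papillae of the mouse tongue. A member's level was read at the locus of the deposited table that holds annotated exons with its name. The 43 names are among 43193 gene names in the merged annotation, and they lay at 42 of its 32052 loci, because Parp9 and Dtx3l share 1 locus. All 43 were placed at the same locus by the GENCODE M21 annotation of GRCm38.

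The samples were dissected circumvallate papillae, the trench-shaped taste organ at the back of the tongue, of wild-type C57BL/6J mice aged 20 to 24 weeks. Per the labels there were 21 libraries, 7 each of Hungry, Satiated and Ad lib mice, all of one genotype and strain and with no drug or transgene named. By its title the series is about immune-related genes in fasted against fed animals. The table has rows for 3 conditions, but 0 of 32052 loci differed between them in any value, so no interferon-stimulated gene could be compared between Hungry, Satiated and Ad lib mice. Each level is therefore the authors' mean over all 21 libraries, with the authors' variance and no value per library, and no test of a member could be made.

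Levels are given in mean compatible fragments, counted where a fragment fits a transcript of the annotation and divided by the size factor of its library, which brings libraries of different depth to one scale. They sum to 21881979 over all loci, against 23769781 fragments in total. The coefficient of variation (CV) is the square root of the authors' variance over their mean. That variance was taken within sets of 8, 7 and 6 libraries, so differences between sets did not enter it. Which libraries form each set was not recoverable. The samples are pieces of tissue, and in such bulk RNA fewer cells of a type and less RNA per cell cannot be told apart.

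Type I and type III interferons act through receptors and the kinases Jak1 and Tyk2. These phosphorylate transcription factors, among them Stat2, which acts with Irf9 at the interferon-stimulated response element in promoters of target genes. Interferon gamma has a receptor of its own and is the classic inducer of the guanylate-binding and immunity-related GTPases. The products block viral replication, sense foreign nucleic acid, or feed back on the pathway, and taste bud cells have been reported to carry interferon receptors and to respond to interferons.

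The promoters of many members carried the letters of that response element. The motif searched was GAAA, any 2 bases and GAAA again, on either strand, with overlapping matches counted separately, in windows from 250 bases before to 50 bases after the start site (RefSeq, GRCm38.p6). Of the 43 members, 33 had a window in the RefSeq table, and 16 of these, 48.5%, held the motif, against 3.99% of 27025 genes and 3.44% of 32851 promoters. With a final C added to the motif, 13 of the 33 held it, 39.4%, against 0.944% of genes. A match is a run of letters and not a bound site, and no binding was measured.

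Stretches around the motif are shown for 8 members of the IFIT, OAS, ISG15, viperin and guanylate-binding groups, whose levels are set against each other further on. Each lies upstream of the start site and outside annotated exons, reads along the gene's own strand, and has the motif in capitals.
Ifit1 (chr19:34640765-34640833, + strand): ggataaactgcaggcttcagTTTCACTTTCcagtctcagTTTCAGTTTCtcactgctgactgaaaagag
Ifit3 (chr19:34583353-34583436, + strand): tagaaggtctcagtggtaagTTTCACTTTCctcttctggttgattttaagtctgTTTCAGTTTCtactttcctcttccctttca
Oas1a (chr5:120907526-120907565, - strand): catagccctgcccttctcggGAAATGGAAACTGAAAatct
Oas3 (chr5:120777705-120777754, - strand): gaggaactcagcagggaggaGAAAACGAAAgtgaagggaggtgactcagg
Isg15 (chr4:156200855-156200916, - strand): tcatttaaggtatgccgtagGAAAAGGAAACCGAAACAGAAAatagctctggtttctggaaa
Rsad2 (chr12:26456543-26456592, - strand): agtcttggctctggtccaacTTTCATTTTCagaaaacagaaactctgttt
Gbp3 (chr3:142559979-142560034, + strand): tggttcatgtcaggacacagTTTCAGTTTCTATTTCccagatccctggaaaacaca
Gbp7 (chr3:142530263-142530312, + strand): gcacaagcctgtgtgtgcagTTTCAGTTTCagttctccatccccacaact

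In Ifit1 and Ifit3 the motif stood 2 times without overlap, and both copies of each lay on the strand opposite to the gene. In Oas1a and Gbp3 2 copies overlapped, and in Isg15 3 copies overlapped in a single run. Altogether 7 members held more than 1 copy. The motif lay wholly upstream in 13 members, 12 of them within 160 bases of the start, and Stat2 had the farthest, 222 to 213 bases before it. In Ddx58, Eif2ak2 and Ifih1 it lay only after the start. Among members at loci of 1 gene, windows of Ifit2, Oasl2, Isg20, Ifi44, Cmpk2, Xaf1, Trim25, Herc6 and Samd9l did not hold these letters. Among those at shared loci, windows of Oasl1, Irf1, Irf3, Irf7, Irf9, Ifi35, Dtx3l and Sp100 did not hold them either.

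**Figure D1:**
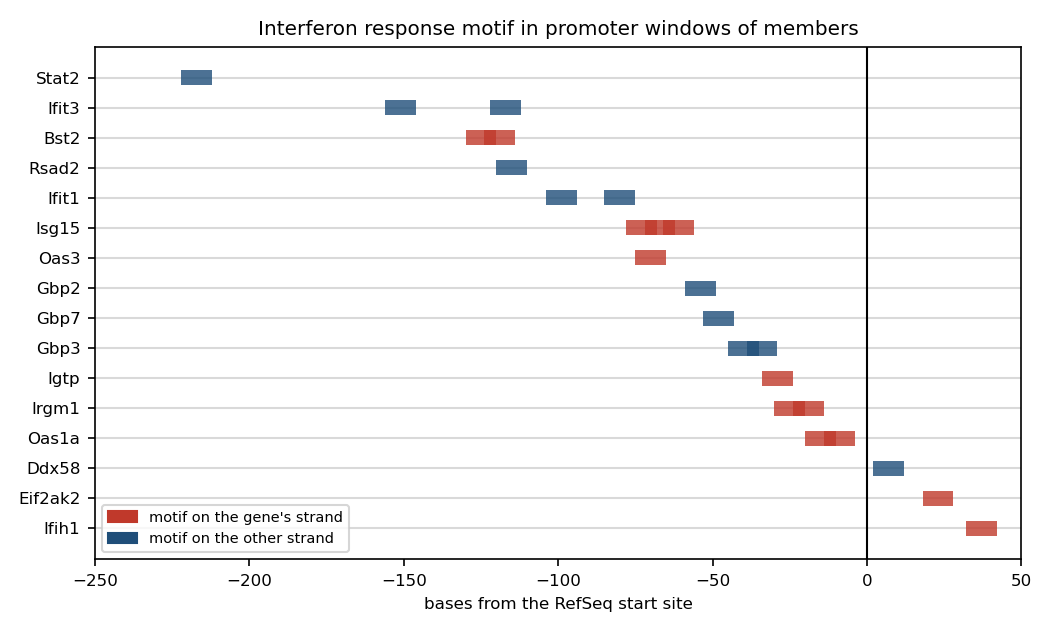
Position of the interferon response motif in promoter windows of the 16 members that held it. The horizontal axis is the distance in bases from the RefSeq start site, red bars mark a motif on the gene's strand, blue bars one on the other strand, and 12 members have a copy within 160 bases before the start.

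Detection was wide and levels were moderate. With detection set at a mean of at least 10 compatible fragments, 42 of 43 members were detected, against 67.6% of all protein-coding gene names, and Iigp1 was the exception. Of the 43, 30 lay at loci that hold 1 gene name and 13 at loci shared with other genes, whose fragments then count as well. The 29 detected members at loci of 1 gene had a median of 222 fragments, with quartiles of 43.4 and 733, against a median of 394 for the 8696 detected loci of 1 gene. Divided by exon length their median was 70.8 fragments per kb, against 134 for those loci. These 29 ran over a wide range of levels, 10.4 fragments for Ifit2 to 2094 for Oasl2.

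**Figure D2:**
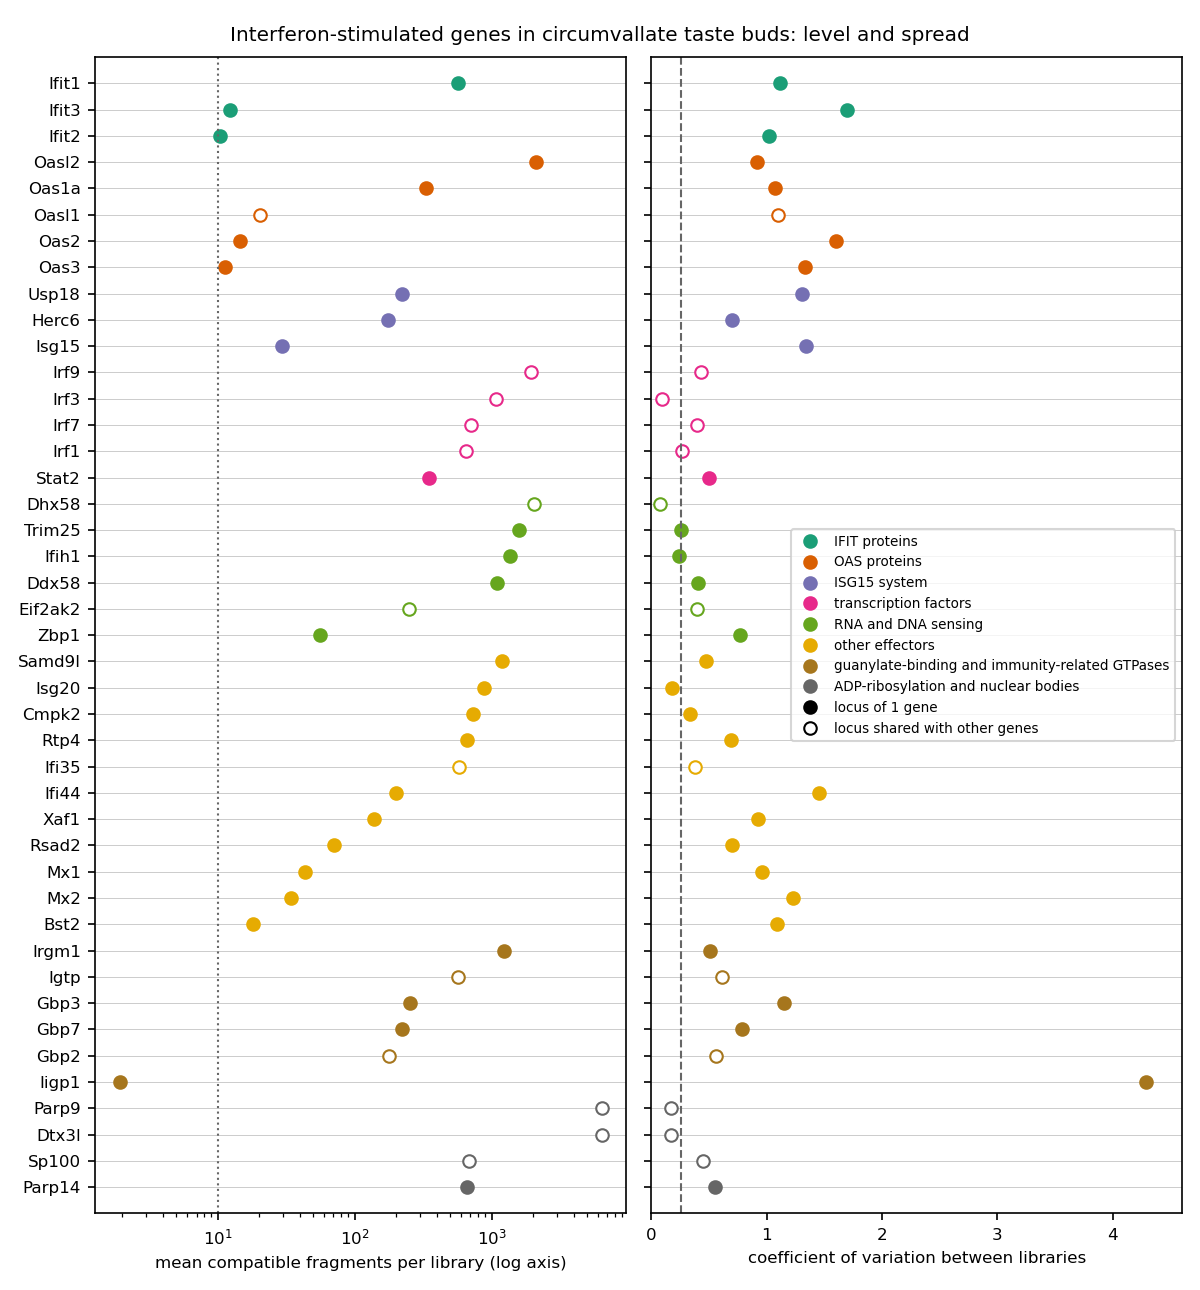
Level and spread of the 43 members, 1 row each, grouped and coloured by role. The left panel gives mean compatible fragments per library on a log axis with the detection level of 10 dotted, the right panel the CV with the median of all detected loci of 1 gene, 0.253, dashed, and open circles mark loci shared with other genes. Iigp1 alone lies below 10 fragments, and most filled circles lie right of the dashed line.

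The IFIT proteins bind foreign RNA and hold back its translation. Ifit1, which recognises RNA caps that lack methylation, had 564 fragments and a CV of 1.11, at chromosome 19, 34640871 to 34650009 of GRCm38. Its close relatives were far lower. Ifit2 (34550694 to 34576419 of chromosome 19) had 10.4 fragments with a CV of 1.02, and Ifit3, a partner of the others in complexes (34583531 to 34588731), had 12.3 with a CV of 1.70. A CV near or above 1 means that fragments were spread unevenly over the libraries. For Ifit3 at least 13.7% of the scaled fragments came from 1 library, where an even share is 4.76%, and for Ifit1 at least 5.92%. The variance of Ifit1 was 17.2 times the authors' fitted variance, the variance that their model gives a locus of that level, while that of Ifit2 was 0.963 times its own.

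The OAS proteins are sensors that, on binding double-stranded RNA, make short chains of adenylate that switch on RNase L. Oas1a (chromosome 5, 120896256 to 120907521) had 332 fragments with a CV of 1.07. Oas2 had 14.5 fragments with a CV of 1.60, and Oas3, which responds to long double-stranded RNA, had 11.4 with a CV of 1.33. The relative Oasl2, with ubiquitin-like domains, was the highest detected member at a locus of 1 gene, with 2094 fragments and a CV of 0.914 (chromosome 5, 114896936 to 114912234). The variance of Oasl2 was 25.3 times the fitted variance, the largest ratio among the members. Of its 12 transcripts in the merged annotation, 5 were new, that is, absent from the reference annotation. Oasl1, which in mice restrains translation of Irf7, shares its locus with Gm13822, which had 20.3 fragments and a CV of 1.09.

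Isg15, a ubiquitin-like protein that is attached to other proteins after interferon, had 29.4 fragments and a CV of 1.34 (chromosome 4, 156199424 to 156200818). Usp18, which removes Isg15 and damps signalling at the type I receptor, had 222 fragments and a CV of 1.31 (chromosome 6, 121245906 to 121270916). Herc6, the main ligase for Isg15 in mice, had 174 fragments with a CV of 0.698. All 3 lay above the fitted variance, Usp18 by a factor of 11.5 and Isg15 by 2.88. Divided by exon length, Usp18 had 126 fragments per kb, Isg15 38.8 and Herc6 32.9. Leading libraries held at least 8.57% of the fragments of Isg15 and 8.12% of those of Usp18.

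Among transcription factors, Stat2, which acts with Irf9, had 351 fragments with a CV of 0.496, and its variance was 2.35 times the fitted one. The other 4 factors lay at loci with several genes, and their levels belong to the whole locus. The Irf9 locus, with Rnf31, had 1949 fragments and a CV of 0.427. The Irf7 locus, with Phrf1, had 709 and a CV of 0.398. Irf7 amplifies the type I response, and Irf1 drives part of the response to interferon gamma. The Irf1 locus, with Gm17334, had 654 fragments and a CV of 0.268, while the locus of Irf3, a factor present before infection, had 1080 and a CV of 0.0963 with Bcl2l12 and Gm15545.

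The RNA and DNA sensors and their helpers had the lowest median CV of the role groups. Ifih1 (MDA5), a cytosolic sensor of long double-stranded RNA, had 1361 fragments with a CV of 0.240. Ddx58 (RIG-I), a sensor of RNA ends, had 1097 with a CV of 0.408, and Trim25, a ubiquitin ligase that acts on it, had 1577 with a CV of 0.261. These 3 levels are well above the members' median, and their CVs are well below the median CV of 0.914. Zbp1, a sensor of nucleic acid in the Z form, was lower and more uneven, with 55.6 fragments and a CV of 0.772. Across the 29 detected members at loci of 1 gene, CV fell with level (Spearman −0.74). The group's median CV over 4 genes at loci of their own was 0.335, and its median log2 ratio of variance to fitted variance was 0.69. All 4 lay above the fitted variance, against 27.6% of all detected loci of 1 gene. The factors were 1.43 for Ifih1, 3.66 for Ddx58, 1.83 for Trim25 and 1.42 for Zbp1. Dhx58 (LGP2) lay at a locus with Cnp, Dnajc7, Nkiras2, Zfp385c and Dhx58os, which had 2028 fragments, and Eif2ak2 (PKR), a kinase that stops translation, at a locus with Sult6b1 and others, which had 248.

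Among other effectors, Isg20, an RNA exonuclease, had the smallest spread. It had 874 fragments with a CV of 0.181, the lowest CV of the 29, and a variance of 0.619 times the fitted one. Isg20 and Ifit2 were the only 2 of the 29 that did not lie above the fitted variance. Rtp4, a chaperone of G protein-coupled receptors that in human cells helps bitter receptors reach the surface, had 662 fragments with a CV of 0.687. Cmpk2, a mitochondrial nucleotide kinase, had 733 with a CV of 0.338, and Samd9l, a restriction factor that also curbs cell growth, had 1192 with a CV of 0.471. Rsad2 (viperin), an enzyme that makes a chain-terminating nucleotide, had 71.1 with a CV of 0.697.

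By compatible fragments, the remaining effectors at loci of 1 gene had higher CVs than those above. Ifi44, an interferon-induced cytoplasmic protein, had 199.6 fragments with a CV of 1.45, and its variance was 13.0 times the fitted one. Xaf1, which promotes cell death, had 138 with a CV of 0.921, and Bst2 (tetherin), which holds budding virus at the cell surface, had 18.0 with a CV of 1.09. The dynamin-like GTPase genes Mx1 and Mx2 had 43.4 and 34.4 compatible fragments with CVs of 0.959 and 1.23. Ifi35, at a locus with Gm11626, had 580.3 with a CV of 0.374. In total fragments Mx1 had 489, so 8.87% of its fragments were compatible with an annotated transcript, against 92.7% for Mx2 (chromosome 16, 97447035 to 97462907 for Mx1). By total fragments the CV of Mx1 was 0.389. Mx1 was the 1 detected member at a locus of 1 gene with a compatible share under 50%, and 7.51% of all detected loci of 1 gene had such a share.

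The guanylate-binding proteins and immunity-related GTPases attack the membranes around intracellular pathogens. Irgm1, a regulator of the other immunity-related GTPases, had 1221 fragments with a CV of 0.510. Gbp3 had 254 fragments with a CV of 1.15 and Gbp7 had 220.4 with a CV of 0.787. All 3 lay above the fitted variance, Gbp3 by a factor of 9.91, Irgm1 by 6.08 and Gbp7 by 4.13. Gbp2, at a locus with the microRNA gene Mir6381, had 177 fragments, and the locus of Igtp with Irgm2, another GTPase of the family, had 569.7.

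Iigp1, an effector GTPase of the same family, stood apart. Its mean was 1.92 compatible fragments with a CV of 4.29. This is the value that a locus takes when every compatible fragment comes from 1 library of the set of 8, and it corresponds to 46 fragments in a library whose size factor was 1.14. For the other 6 libraries of that set whose size factor could be read, the fragments were not whole numbers. By total fragments Iigp1 had 2.37 with a CV of 3.48, so its total was not confined to 1 library. Across all loci, 474, 667 and 454 had their compatible fragments in 1 library of the sets of 8, 7 and 6, and Iigp1 was the 1 member among them.

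Of the ADP-ribosylation and nuclear body genes, Parp14, which attaches ADP-ribose to proteins, had 659 fragments with a CV of 0.550 and a variance 4.68 times the fitted one. Parp9 and Dtx3l, whose products work as a complex, were read from their shared locus, which also holds Kpna1 and Gm15564, with 6385 fragments and a CV of 0.169. The locus of Sp100, a nuclear body protein, also holds Sp140, and it had 682 fragments with a CV of 0.451.

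Some neighbouring family members differed widely in level per kb of exon, and others did not. Ifit1 had 212 fragments per kb, against 2.66 for Ifit2, 64.5 kb away, and 7.04 for Ifit3, 52.1 kb away, ratios of 80.0 and 30.2. Oas1a had 176 fragments per kb, against 3.25 for Oas2 and 2.18 for Oas3 in the same stretch of chromosome 5, ratios of 54.3 and 80.9. Among these 3 IFIT and 3 OAS genes, 1 of each family was far above the other two. Further Oas1 genes outside the member list, Oas1g, Oas1c and Oas1b, had 142, 99.8 and 46.3 fragments, and whether these similar genes share fragments with Oas1a was not tested. Cmpk2 had 229 per kb and Rsad2, 12.8 kb away, 16.4, a ratio of 13.9. Gbp3 and Gbp7 were closer, at 78.4 and 39.7 per kb, and Mx1 and Mx2 had a ratio of 1.25, or 13.2 by total fragments. Of the 8 promoter stretches printed above, those of Ifit1, Ifit3, Oas1a and Gbp3 hold 2 motif copies each, and that of Isg15 holds 3. Whether the number of copies goes with the level was not tested.

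Ranked per kb, Oasl2 with 540 fragments came first, then Isg20 with 478, Rtp4 with 421, Trim25 with 274, Cmpk2 with 229, Samd9l with 220 and Ifit1 with 212. At the foot were Ifit3, Oas2, Ifit2 and Oas3. Steps between ranks were small beside the spread. In all 28 pairs of neighbours in this order the difference was smaller than the larger of the 2 standard deviations, taken from the authors' variance. That spread is between libraries and is not the error of a mean, so how firm the order is was not measured.

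**Figure D3:**
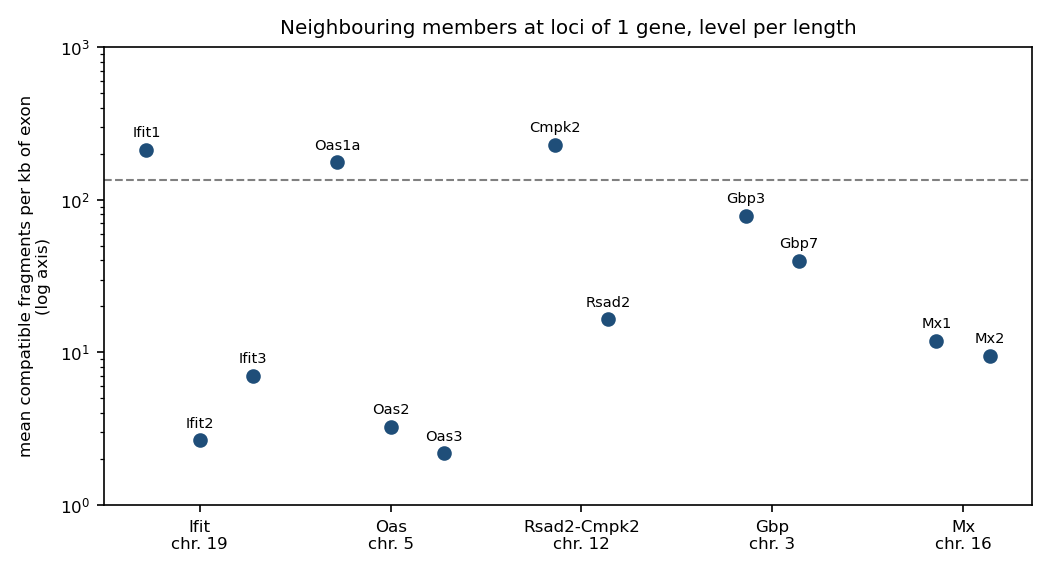
Level of neighbouring members at loci of 1 gene, in mean compatible fragments per kb of exon on a log axis. The dashed line is the median of all detected loci of 1 gene, 134, and Ifit1, Oas1a and Cmpk2 lie above it while their neighbours Ifit2, Ifit3, Oas2, Oas3 and Rsad2 lie far below.

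The spread between libraries was large for most members. Of the 29 detected members at loci of 1 gene, 27 had a variance above the authors' fitted variance, against 27.6% of all 8696 such loci. Their median log2 ratio of variance to fitted variance was 1.53, with quartiles of 0.87 and 2.60, against −0.62 for those loci. Members had a median CV of 0.914 (quartiles 0.510 and 1.15), against 0.253 (quartiles 0.162 and 0.512) for the same loci. A CV above 1 was found for 12 of the 29, against 4.90% of those loci. Among the 13 members at shared loci, 11 lay above the fitted variance, with Parp9 and Dtx3l both counted although they share 1 locus. Irf3 and Dhx58 lay below it, with log2 ratios of −2.31 and −2.69. By locus, with shared loci added to those of 1 gene, 37 of 41 lay above, against 26.1% of all detected loci.

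The same comparison was made within 3 classes of level. Among members of 10 to under 100 fragments, 9 of 10 lay above the fitted variance, against 38.1% of loci in that class. Among those of 100 to under 1000 the count was 12 of 13, against 25.3%, and among those of 1000 and over it was 6 of 6, against 21.2%. Median log2 ratios of members in the 3 classes, low to high, were 0.84, 2.23 and 2.11, against −0.31, −0.71 and −0.75 for all loci. Across the 29 members, log2 level and log2 ratio had a Pearson correlation of 0.39 and a Spearman correlation of 0.33, a description only, since all members share the same libraries.

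**Figure D4:**
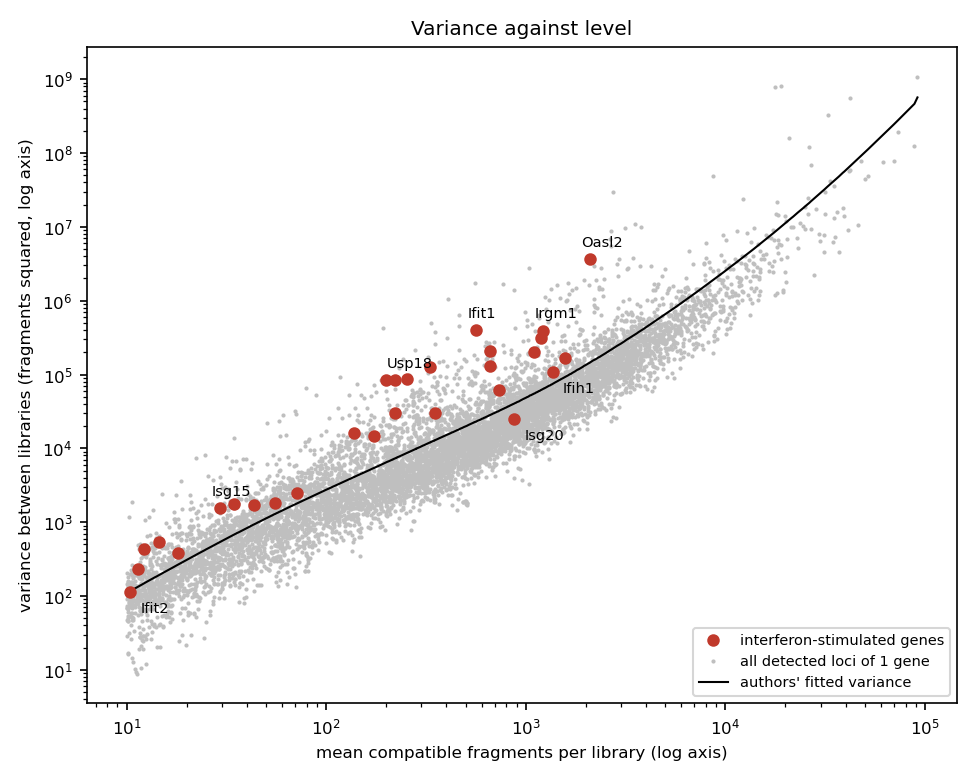
Variance between libraries against mean compatible fragments, both on log axes, for the 29 detected members at loci of 1 gene (red) and all 8696 such loci (grey), with the authors' fitted variance as a line. Of the red points 27 lie above the line, and Isg20 and Ifit2 lie below it.

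A lower limit on the share of a single library could be set for some members. It was worked out from the variance alone and leaves out the part of the mean, so it is loose and the smallest possible share is higher. A leading library always holds at least the even share of 4.76%, and this limit exceeds that share exactly when the CV is above 1. The 12 of the 29 with a limit above the even share are therefore those with a CV above 1, against 4.90% of all detected loci of 1 gene. They are not a separate result. This loose limit was highest for Ifit3 and Oas2, the only ones where it reached 10%, at 13.7% and 12.2%. Ifi44 was next, at 9.999%. A library with 10% or more of the fragments is not excluded for the other members. Without Ifit3 and Oas2 the median log2 ratio stayed at 1.53. The true share of the leading library is not known.

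Spread was also set beside the promoter motif. The 13 detected members at loci of 1 gene with the motif had a median CV of 1.07 and a median log2 ratio of 1.54. Of these, 13 of 13 lay above the fitted variance, against 27.6% of all detected loci of 1 gene. The same share stands beside the counts that follow. The 9 such members whose window did not hold it, among them Oasl2 and Isg20, had a median CV of 0.698 and a median log2 ratio of 1.44, with 7 of 9 above. The groups also differed in level, with a median of 254 fragments with the motif and 733 without it, and across the 29 members CV fell with level (Spearman −0.74). The 7 members with no window in the table had a median CV of 0.959, with 7 of 7 above. The ranges overlapped, 0.46 to 4.10 with the motif and −0.69 to 4.66 without it. New transcripts were annotated at 10 of 29 members, a share at the background of 34.4% of all detected loci of 1 gene. The median compatible share was 94.3% for members and 95.5% for all loci.

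Genes upstream of the members were read for comparison. Of 22 interferon genes, 18 were at 0 compatible fragments, among them Ifnb1 and Ifng, and the highest total among these 18 was 8.79 fragments, for Ifna16. The only 3 counted as detected, Ifnl2, Ifnl3 and Ifnk, were at loci with other genes. Receptor and kinase genes were all detected, 10 of 10. Of the 5 at loci of 1 gene, 0 lay above the fitted variance, against 27.6% of all such loci. Their median CV was 0.162 and their median log2 ratio −0.98. All loci of 1000 fragments and over had medians of 0.142 and −0.75. The type I receptor gene Ifnar1 had 1721 fragments, the interferon gamma receptor genes Ifngr1 and Ifngr2 1418 and 1608, and the type III receptor gene Ifnlr1 82.0. Receptor transcripts were thus present with a spread near that of loci at large, while most members lay above the fitted variance. The difference between the lists could not be tested without values per library.

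Regulators of the pathway were read as a further list. Of 8 regulators all were detected, and 1 of the 5 at loci of 1 gene lay above the fitted variance, a share close to the 27.6% of all loci. That gene was Socs3, an inhibitor of Jak kinases that cytokines induce, with 504 fragments and a log2 ratio of 2.93, while Socs1 had 185 and −0.69. Mavs, the adaptor of Ifih1 and Ddx58, had 701 fragments and a log2 ratio of −1.08, and the kinase gene Tbk1 had 1599 and −0.93. Mb21d1 (cGAS), a DNA sensor, was read at a shared locus with a log2 ratio of 1.61. Of the enzymes that attach Isg15, Ube2l6 had 37.2 fragments with a log2 ratio of −1.42, and Uba7 was at a shared locus. A further list of 52 interferon-induced genes had 25 detected at loci of 1 gene, of which 17 lay above the fitted variance, with a median log2 ratio of 0.86.

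Markers of cell types that the dissected papillae could hold were read the same way. Of 9 taste bud markers 9 were detected, and the 7 at loci of 1 gene had a median CV of 0.131, with Krt8 at 37058 fragments, so the defining markers of the labelled tissue were present. Keratinocyte markers were also abundant, 193 fragments for Lor to 41906 for Krt6a, and 6 of 6 lay above the fitted variance, with a median CV of 1.24 and a median log2 ratio of 5.56. Of 11 macrophage and dendritic cell markers 10 were measured and 9 detected, and the 5 at loci of 1 gene had 21.3 to 96.6 fragments, 271 in sum, with 4 of 5 above the fitted variance. The plasmacytoid dendritic cell genes Siglech and Cd209d had 0.332 and 0.796 fragments, and the other 2 markers of that list were read at loci with other genes. Of 8 T and NK cell markers 1 was detected, Trbc2, and Cd3e and Ncr1 were at 0. The neutrophil gene Ly6g was at 0 while S100a8 and S100a9 had 69.8 and 117 fragments with CVs of 2.55 and 2.59, and 1 of 4 B cell markers was detected. Of endothelial markers 3 of 4 were detected and of fibroblast markers 2 of 5, with Col1a1 at 0.180 fragments. Among the endothelial ones, Kdr had 10.7 fragments with a CV of 4.04. Cdh5, not detected, had 0.0403 compatible but 209 total fragments. The part of these cells in the spread of the members was not tested.

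**Figure D5:**
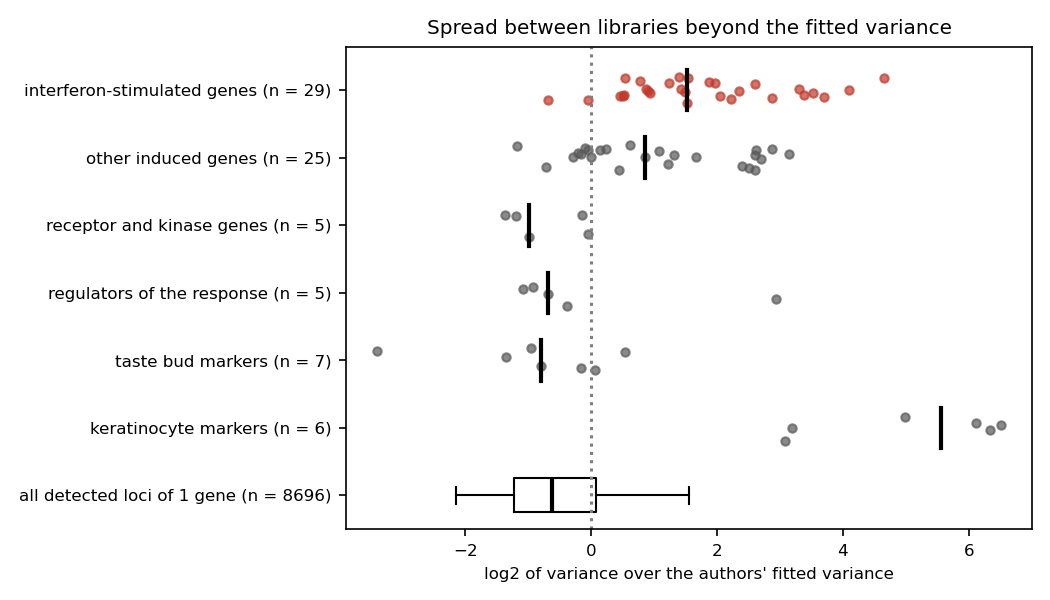
Log2 of the variance over the fitted variance for detected loci of 1 gene, by list, with a point for each gene and a bar at the median. The box gives the quartiles and median of all 8696 such loci, with whiskers at the 5th and 95th percentiles. Medians are 1.53 for the 29 members, 0.86 for the 25 other induced genes, −0.98 for receptor and kinase genes, −0.80 for taste bud markers and 5.56 for keratinocyte markers.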

How the data were processed

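RNA of dissected circumvallate papillae was reverse transcribed with oligo(dT) primers, per the labels' protocols. Per the submitters' processing notes, the build was GRCm38.p4 and the tools were Trimmomatic, FastQC, TopHat, Bowtie2, Cufflinks and Cuffdiff, whose order, versions and settings are not stated there. What the authors deposited is a table in the form of Cuffdiff's variance model, per the file headers, and a transcript annotation merged by them. Its deposited values are a signal, a mean over libraries of fragments per locus scaled by size factors, for compatible and for total fragments, and the 2 variances plus the variance fitted by the authors' model. They are not divided by length, so levels of different genes were compared per kb of the union of their exons. Whether fragments rise evenly with exon length after oligo(dT) priming was not tested. Condition labels in that table were not used for any comparison, since all 3 conditions hold the same values.

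Gene names were placed by the merged annotation. Members and lists were chosen with earlier results of these data known. Every member was named, and other genes only from lists of interferon, receptor and kinase, conjugation, regulator and other induced genes and of cell type markers. The level of 1 gene of these lists is not reported here. Medians and counts over members stand beside those over all loci, with no test, because the table holds no value per library. Sets of libraries were read from loci with fragments in 1 library (relative tolerance 0.0001, whole fragments within 0.0002). Variance over squared mean over 21 was taken as a loose lower limit on the share of a leading library. This step was tested on simulated data. No interval was computed for a level. Python 3.11.15, numpy 2.4.6, pandas 2.3.3, scipy 1.17.1 and matplotlib 3.10.9 were used.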

Additional observations from a re-analysis of the deposited data

How the results depend on the processing

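Each summary of the members kept its direction and stayed within 1.5 times its value under the alternatives tried. The count of detected members was 42, and it was 43 at a mean of at least 1 fragment, 33 at 50, 42 by total fragments and 29 at loci of 1 gene only. The count above the fitted variance was 27 of 29. It was 28 of 30 at a detection level of 1 (31.1% of all such loci), 20 of 21 at 50 (25.2%) and 37 of 41 loci with shared ones (26.1%). A running median, which about 50.1% of loci exceed by construction, gave 28 of 29, and total fragments with a running median of their own variance gave 27 of 29 (50.6%). The median log2 ratio was 1.40 to 2.05 and the median CV 0.687 to 0.914. Levels per kb moved beyond that range for Isg20 by longest transcript, by 1.68 times, and for Mx1 by total fragments, by 11.3 times. No paired analysis was possible because the table holds no value per library, and for the same reason no library could be left out. Low levels such as those of Ifit2, Oas3 and Iigp1 rest on few fragments.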

Other observations

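Interferon-induced genes outside the member list also ranged widely in spread. The membrane proteins Ifitm1 and Ifitm3, which block virus entry, had 325 and 1848 fragments with log2 ratios of variance to fitted variance of 3.14 and 2.61, while Ifitm2 of the same family had 1131 and 0.15. Oas1g, a close relative of Oas1a, had 142 fragments and a CV of 1.10. Rnf213, a very large ubiquitin ligase, had 1289 fragments and a log2 ratio of 2.88, Lgals3bp 632 and 2.61, and Ifi27l2a 144 and 2.70. Ddx60, a helicase, had 82.3 fragments with a CV of 1.39. Adar, the RNA editing enzyme, had 532 fragments and a log2 ratio of −1.17, Tor3a 723 and −0.72, and Helz2 255 and −0.20. Cxcl9, a chemokine that interferon gamma induces, had 0.133 fragments and Gbp5 0.579. Differences between these genes were not tested.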
